A study of Mus musculus with 6 samples.

Results

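AP-1 transcription factors were followed through a droplet-based single-cell RNA sequencing experiment on material labelled with YUMM2.1 as its source. YUMM2.1 is a mouse melanoma line made from a genetically engineered mouse tumour. The 10 genes were chosen by symbol, with earlier results of these data known: Fos, Fosb, Fosl1, Fosl2, Jun, Junb, Jund, Atf3, Batf and Batf3. They are 10 of the 31053 genes in the expression matrix, and each had UMIs (unique molecular identifiers, 1 per captured transcript molecule), from 1045 for Batf to 108691 for Junb over all cells kept.

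AP-1 is a dimer of basic leucine zipper proteins. FOS-family proteins pair with a JUN-family protein, while ATF3 and the BATF proteins pair with JUN proteins or related zippers, and the dimers bind short palindromic DNA sites. Fos, Fosb, Jun, Junb and Atf3 are immediate-early genes, transcribed within minutes of a stimulus through pre-existing factors. Handling and enzymatic dissociation of tissue is a known stimulus of this kind in single-cell work. Fosl1 and Fosl2 come on later and stay longer, Jund is expressed widely at rest, BATF works with IRF4 in activated T cells, and BATF3 is required for the development of cDC1, the dendritic cells that cross-present antigen to CD8 T cells.

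2 groups were analysed: YUMM2.1 with an Empty vector and YUMM2.1 with Bmal1 WT, where Bmal1 is the circadian activator that binds E-boxes. Each group was 1 library that pooled 3 replicates marked with hashtag antibodies (h1, h7 and h8 for Empty vector, h3, h5 and h9 for Bmal1 WT). The third labelled group, Bmal1 bHLH, is not analysed here because its 3 deposited parts were identical to those of Bmal1 WT. The labels give no age, promoter, clone or time, leave open a cultured or a dissociated origin of the cells, and do not tie the hashtags to separate animals or cultures. The p-values below therefore measure the spread between hashtag replicates, which may be technical, and a difference between the groups cannot be told apart from a difference between the 2 libraries.

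Of 4147 Empty vector and 2785 Bmal1 WT barcodes, 6364 were kept as cells, with a median depth of 5094 UMIs for Empty vector and 7570.5 for Bmal1 WT. The 2 libraries shared 5 cell barcodes. Although the labels name a melanoma line, most cells carried immune markers, so the material was not a culture of that line alone. Cells were gated on fixed marker lists that hold no AP-1 member, and 5444 cells entered a class. A class name stands for cells that resemble that type by these markers. The 12 classes with at least 10 cells in at least 4 of the 6 replicates were compared: 1517 NK cells, 816 monocytes, 651 CD8 T cells, 453 other T cells, 351 fibroblasts, 328 melanoma cells, 293 conventional CD4 T cells, 285 mature dendritic cells (by a marker list that includes Ccr7 and Fscn1), 213 cDC2, 164 cDC1, 156 macrophages and 102 regulatory T cells. The hashtag was missing or not unique in 80.1% of fibroblasts and 66.5% of melanoma cells, so their replicate values rest on few cells. The melanoma gate had 10 of its 15 markers over 2-fold above the other cells, and 109 of its cells had less than 1% mitochondrial UMIs. Levels are given in CPM, the gene's UMIs summed over the cells of a class in a replicate and scaled to 1e6 UMIs in all, and are compared within a gene only.

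Short stretches of the promoters of 7 members are shown because members that were high in the same classes can be set beside those that were not. They were taken from RefSeq (build GRCm38.p6), which gave a window from 250 bases before to 50 after the start for 9 of the 10 members; Fosl1 had no entry. Both strands were searched for TGACTCA (the AP-1 site), TGACGTCA (the CRE), TGACG (its half-site, which is also the first part of the CRE), TGACATCA (a site known from the Jun promoter), CACGTG (an E-box) and the CArG box. Capitals mark the match. Fos is shown at chr12:85473741-85473848 (plus strand), Fosb at chr7:19310081-19310125 (minus strand), Jun at chr4:95052240-95052287 (minus strand), Junb at chr8:84978830-84978874 (minus strand), Atf3 at chr1:191183334-191183360 (minus strand), Batf at chr12:85686602-85686646 (plus strand) and Batf3 at chr1:191098164-191098192 (plus strand).
Fos: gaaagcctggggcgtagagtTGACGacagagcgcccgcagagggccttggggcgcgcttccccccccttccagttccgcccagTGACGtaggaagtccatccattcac
Fosb: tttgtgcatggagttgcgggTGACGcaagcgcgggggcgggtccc
Jun: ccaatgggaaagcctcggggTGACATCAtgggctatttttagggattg
Junb: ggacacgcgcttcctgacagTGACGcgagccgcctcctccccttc
Atf3: ggaagctattaatagcattaCGTCAgc
Batf: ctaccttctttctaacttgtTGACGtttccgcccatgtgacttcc
Batf3: tgcCACGTGacttccacgaagagcggggg
TGACG was present in 5 of the 9 windows (Fos, Fosb, Junb, Atf3 and Batf) and in 20.8% of all 32851 windows of the same length. It stood 129 and 66 bases before the start in Fos, and on the opposite strand in Atf3. TGACATCA was present in Jun alone among the members and in 3.62% of all windows. CACGTG was present in Batf3 alone among the members and in 7.15% of all windows. No member window held TGACTCA, TGACGTCA or a CArG box, which 5.20%, 1.79% and 1.63% of all windows held. The Atf3 stretch lies in an exon and UTR of another annotated Atf3 transcript and the Batf3 stretch in an annotated Batf3 exon. The other 5 stretches overlap no annotated exon or UTR of a member, and overlap with other genes was not checked. A match is a description of these letters and not of binding.

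**Figure D1:**
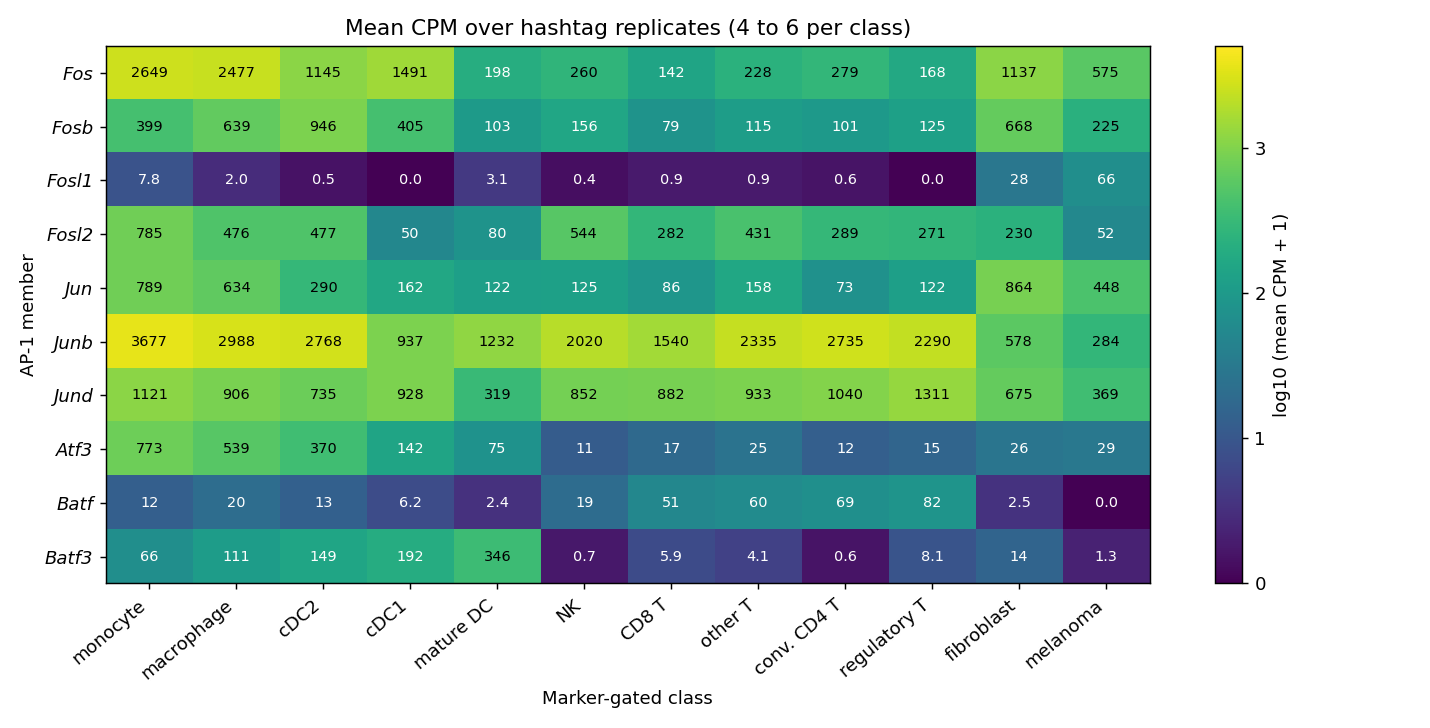
Mean level of each AP-1 gene (rows) in each marker-gated class (columns), coloured by log10 of 1 plus the mean CPM over hashtag replicates (4 to 6 per class), with that mean printed in each cell. Junb and Jund are filled in every class, Fos, Jun and Atf3 are highest in myeloid cells (Jun also in fibroblasts), Fosl1 is near 0 in most columns, Batf is highest in the T-cell columns and Batf3 in the dendritic-cell ones.

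The class comparison asked which members were raised or lowered in a class against the mean log level of the other 11 classes (edgeR quasi-likelihood test on summed UMIs, with the hashtag replicate as a term, adjusted over 11567 genes). Of 120 member and class pairs, 85 passed the threshold of 0.05. Monocytes had 9 of 10 members higher and 0 lower, where 21.7% of all genes tested were higher and 33.3% lower. Macrophages had 7 higher and 0 lower, against 17.5% and 11.4% of all genes. In cDC2 the counts were 6 higher and 0 lower, against 17.4% and 12.9%. In cDC1 they were 5 higher and 2 lower, against 15.2% and 18.2%. These myeloid classes thus carried more raised members than the background share of genes.

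The lymphoid classes were mixed. NK cells had 3 members higher and 5 lower (27.5% of all genes higher, 14.2% lower). CD8 T cells had 1 higher and 4 lower (30.7% and 10.3%). Conventional CD4 T cells had 3 higher and 5 lower (24.1% and 6.25%), other T cells had 3 higher and 4 lower (26.5% and 8.33%), and regulatory T cells had 3 higher and 4 lower (19.9% and 4.02%). Mature dendritic cells had 1 member higher and 6 lower, against 21.1% and 27.5% of all genes. Fibroblasts had 4 higher and 2 lower (28.8% and 17.5%), and melanoma cells had 2 higher and 6 lower (39.8% and 21%). Total-UMI scaling left a median over all genes between -0.36 (monocytes) and 0.20 (conventional CD4 T cells) on the log2 scale, and with TMM scaling the monocyte median was -0.04 and 10 of 10 members were higher there.

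Fos encodes the prototype FOS protein and lies on chromosome 12 (85473890 to 85477273, plus strand, GRCm38). Its level was 2649 ± 587 CPM in monocytes (SD, n = 6), 2477 ± 905 in macrophages (n = 6), 1491 ± 432 in cDC1 (n = 5), 1145 ± 296 in cDC2 (n = 5), 1137 ± 292 in fibroblasts (n = 5) and 575 ± 315 in melanoma cells (n = 5). In lymphocytes it was 279 ± 118 CPM in conventional CD4 T cells (n = 6), 260.3 ± 68.7 in NK cells (n = 6), 228 ± 144 in other T cells (n = 6), 168 ± 94.2 in regulatory T cells (n = 4) and 142 ± 64.8 in CD8 T cells (n = 6), and in mature dendritic cells it was 198 ± 240.1 (n = 6). Monocytes were 18.6 times CD8 T cells, and the lowest monocyte replicate (1930 CPM) lay far above the highest CD8 replicate (209 CPM). Fos was higher than the mean of the other classes in all 4 of monocytes, macrophages, cDC1 and cDC2 and in fibroblasts, with a log2 difference of 2.56 ± 0.21 (SE) in monocytes (edgeR, adjusted p = 8.31e-17). It was lower in the 5 lymphoid classes and in mature dendritic cells, by up to 2.02 ± 0.32 in CD8 T cells (edgeR, log2 difference -2.02, adjusted p = 3.56e-07). In melanoma cells the difference of 0.13 ± 0.28 did not pass (adjusted p = 0.748). The value in mature dendritic cells, -1.79, became -2.60 without Bmal1 WT h9, a replicate described with the group comparison. Among cDC1 replicates, Bmal1 WT h9 had 453 CPM of summed macrophage markers, against 9.43 to 23.9 in the others. Empty vector h1 had 1279 CPM of summed monocyte markers, against 77.3 to 504 in the others. The part of other cell types in the cDC1 levels of Fos, Fosb and Atf3 was not tested.

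After each cell was thinned to 1000 UMIs, which left out 338 shallower cells, Fos was seen in 76.3% of monocytes and 11.7% of CD8 T cells. Before thinning the shares were 89.2% at a median of 7764.5 UMIs and 33.3% at 5499. Thus the contrast between myeloid cells and lymphocytes was in the share of positive cells as well as in the summed level.

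Fosb, the closest relative of Fos, sits on chromosome 7 (19302696 to 19310051, minus strand). It had a different order of classes. Its level was 946 ± 305 CPM in cDC2, 668 ± 146 in fibroblasts, 639 ± 186 in macrophages, 405 ± 205 in cDC1, 399 ± 102 in monocytes and 225 ± 132 in melanoma cells (n = 5, 5, 6, 5, 6 and 5). The lymphoid classes and mature dendritic cells lay between 78.8 ± 27.0 (CD8 T cells, n = 6) and 156 ± 48.5 CPM (NK cells, n = 6). Fosb was higher in the same 5 classes as Fos and lower in the same 6, with the largest rise in cDC2 (log2 2.12 ± 0.19, edgeR, adjusted p = 1.09e-14). Its 3 nearest genes over the 12 class means, among 8860 genes, included Egr1 (Pearson r = 0.95) and Egr2 (0.92), zinc-finger factors of the same immediate-early set, with Timm10b (0.92) as the other.

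Fosl2 (FRA-2, chromosome 5, 32135801 to 32157842, plus strand) differed from Fos by being high in NK cells and low in cDC1. Its level was 785 ± 115 CPM in monocytes, 544 ± 80.4 in NK cells, 477 ± 81.2 in cDC2, 476 ± 103 in macrophages and 431 ± 147 in other T cells. It then ran through 289 ± 73.0 CPM in conventional CD4 T cells, 282 ± 118 in CD8 T cells, 271 ± 153 in regulatory T cells and 229.9 ± 86.4 in fibroblasts. The lowest were mature dendritic cells (79.7 ± 113), melanoma cells (51.6 ± 20.05) and cDC1 (50.3 ± 31.8). The mature dendritic mean was raised by Bmal1 WT h9 at 309.7 CPM, where the other 5 replicates had 21.2 to 40.4, below the means of the other classes. The test called it higher in the first 5 classes and lower in the last 3. For NK cells the log2 difference was 1.31 ± 0.19 (edgeR, adjusted p = 2.62e-08), and for cDC1 it was -2.49 ± 0.33 (adjusted p = 7.81e-09).

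Fosl1 (FRA-1, chromosome 19, 5447547 to 5455946, plus strand), a FOS-family protein linked to MAPK signalling in tumour cells, was the member most restricted to melanoma cells and fibroblasts. In melanoma cells it was 58.1 and 82.8 CPM in Empty vector h1 and h8, and 66.9, 61.2 and 61.9 CPM in Bmal1 WT h3, h5 and h9. In fibroblasts it was 10.2 and 3.64 CPM in Empty vector h1 and h8 and 74.4, 26.9 and 26.7 CPM in the 3 Bmal1 WT replicates, from 1 to 22 UMIs each. The melanoma replicates thus lay close together, while the fibroblast ones were spread over more than 10-fold. Monocytes followed at 7.82 ± 5.83 CPM, and mature dendritic cells at 3.13 ± 7.66, where 1 replicate (Bmal1 WT h5) held all 9 UMIs. No UMI was found in cDC1 or regulatory T cells, which allows at most 1.45 and 2.87 CPM (3 counts over both libraries, counting error only). Melanoma cells were higher than the mean of the other classes (edgeR, adjusted p = 1.54e-21), as were fibroblasts (4.02e-10) and monocytes (7.19e-05), but with UMIs this few in the other classes the fitted fold depends on the prior count, and the levels are given in its place. Fosl1 was seen in 31.7% of melanoma cells at a median of 12920.5 UMIs and in 0.614% of CD8 T cells at 5499, and after thinning in 3.27% and 0%. In fibroblasts, counted with or without a hashtag, it was seen in 22.8% at a median of 17741 UMIs. After thinning to 1000 UMIs the fibroblast share was 4.39%, so melanoma cells were not more often positive than fibroblasts at equal depth. Its nearest genes over classes were Igf2bp2 (r = 0.96), Cav1 (0.95) and Il33 (0.95).

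**Figure D2:**
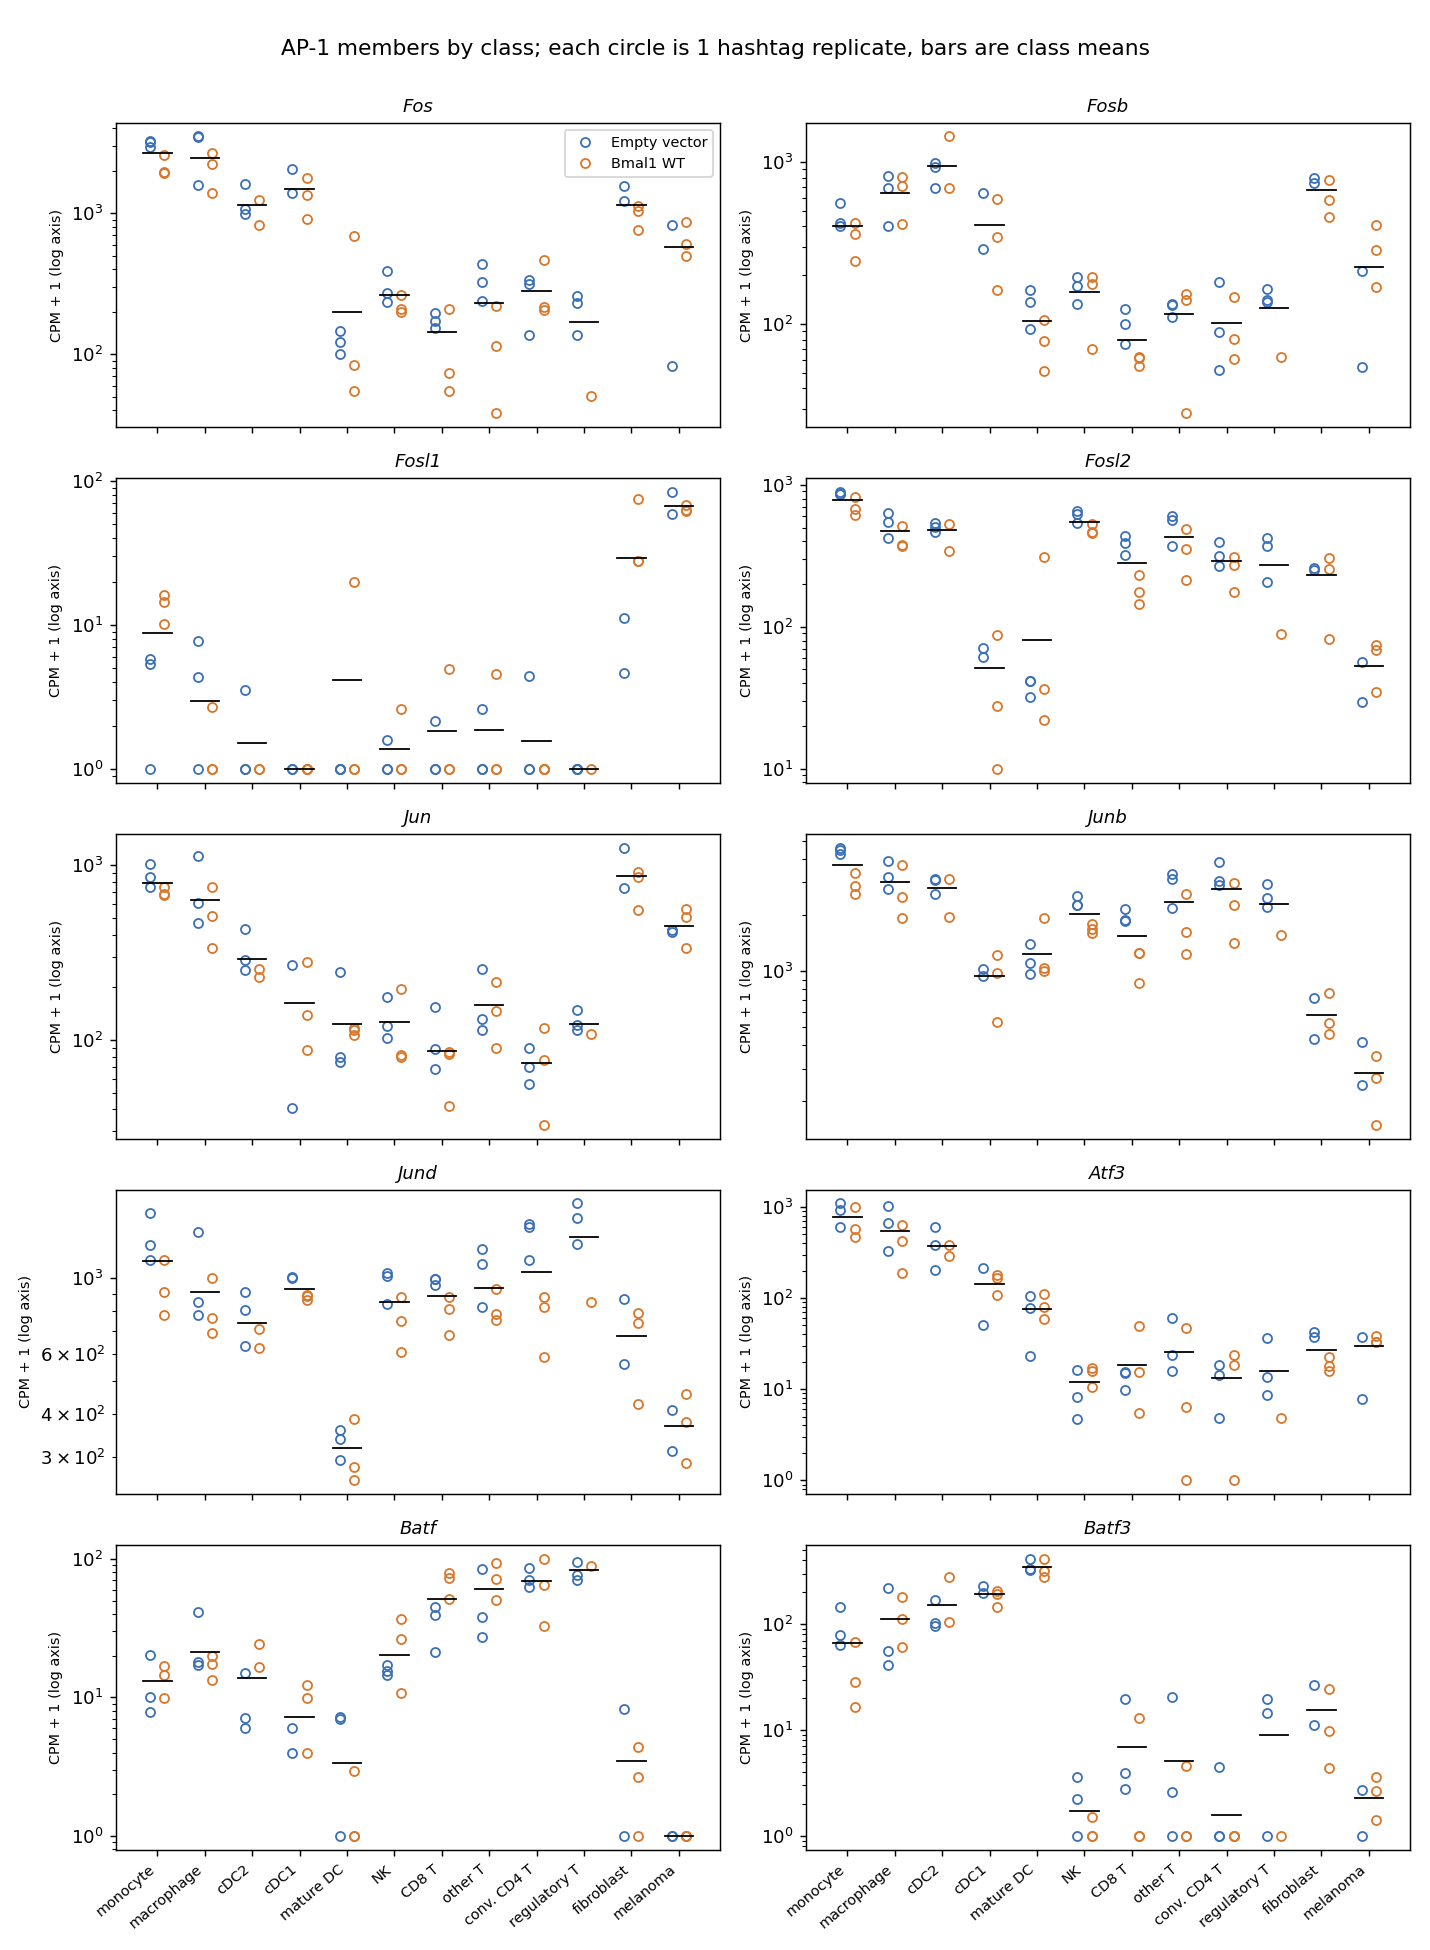
Level of each AP-1 gene in every hashtag replicate (points, CPM plus 1 on a log axis, Empty vector and Bmal1 WT in separate colours) by class, with the class mean. Replicates of 1 class lie close together for Junb and Jund, and classes with UMIs in single figures spread widely for Fosl1, Batf and Batf3.

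Jun, the founding JUN protein (chromosome 4, 95049034 to 95052222, minus strand), was highest in fibroblasts at 864 ± 261 CPM and monocytes at 789 ± 127. Macrophages had 634 ± 279 CPM, melanoma cells 448 ± 86.1, cDC2 290.3 ± 82.3, cDC1 162 ± 107 and mature dendritic cells 122 ± 62.7. Lymphoid classes lay between 72.8 ± 29.0 (conventional CD4 T cells) and 158 ± 63.4 CPM (other T cells). Jun was the member called higher in melanoma cells beside Fosl1 (log2 1.17 ± 0.18, edgeR, adjusted p = 7.00e-08). It was higher in fibroblasts by 2.12 ± 0.17 (adjusted p = 8.60e-17), and its differences in cDC1 (-0.51 ± 0.23, adjusted p = 0.0766) and cDC2 (0.34 ± 0.20, adjusted p = 0.211) did not pass, in contrast to Fos and Fosb in those classes.

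Junb (chromosome 8, 84974484 to 84978718, minus strand), which can restrain JUN and is induced by cytokine signals, differed from Jun by being high in most lymphoid classes and low in fibroblasts and melanoma cells. Its level was 3677 ± 857 CPM in monocytes, 2988 ± 742 in macrophages, 2768 ± 511 in cDC2, 2735 ± 827 in conventional CD4 T cells, 2335 ± 819.7 in other T cells, 2289.7 ± 577 in regulatory T cells and 2020.5 ± 379 in NK cells. CD8 T cells had 1540.1 ± 489 CPM, mature dendritic cells 1232 ± 369, cDC1 937 ± 251, fibroblasts 578 ± 151 and melanoma cells 284 ± 102. Of the 12 classes, 10 lay within 4-fold of the top, and the 2 outside were fibroblasts and melanoma cells. Junb fell below the other classes in melanoma cells by 2.61 ± 0.17 on the log2 scale (edgeR, adjusted p = 2.02e-21) and in fibroblasts (-1.44 ± 0.16, adjusted p = 3.63e-12), while it was higher in 7 immune classes.

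Jund (chromosome 8, 70698949 to 70700616, plus strand) had the flattest profile of the 8 members with UMIs in all 12 classes, with 11 classes within 4-fold of the top and a highest mean 4.11 times the lowest. Its level was 1311 ± 347 CPM in regulatory T cells (n = 4), 1121 ± 265 in monocytes, 1040.3 ± 338 in conventional CD4 T cells, 933 ± 184 in other T cells, 928 ± 68.2 in cDC1, 906 ± 245 in macrophages, 882 ± 123 in CD8 T cells and 852 ± 161 in NK cells. It was 735 ± 121 in cDC2, 675 ± 178 in fibroblasts, 369 ± 69.4 in melanoma cells and 319 ± 50.8 in mature dendritic cells. The 2 lowest classes were the 2 called lower, by 1.41 ± 0.12 in mature dendritic cells (edgeR, log2 difference -1.41, adjusted p = 2.75e-15) and by 1.12 ± 0.13 in melanoma cells (log2 difference -1.12, adjusted p = 2.13e-11). Thinned to 1000 UMIs, Jund was seen in 69.6% of regulatory T cells and 29.8% of mature dendritic cells.

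Atf3, a stress-induced member of the ATF and CREB group (chromosome 1, 191170296 to 191218039, minus strand), was high in myeloid classes and low elsewhere. Monocytes had 773 ± 261 CPM, macrophages 539 ± 293, cDC2 369.8 ± 148, cDC1 142 ± 63.9 and mature dendritic cells 75.1 ± 32.3. All other classes had between 11.1 ± 5.06 CPM (NK cells) and 28.9 ± 12.5 (melanoma cells). The lowest monocyte replicate (464 CPM) exceeded the highest value of any lymphoid, fibroblast or melanoma replicate (60.1 CPM, in other T cells). The log2 difference was 4.16 ± 0.17 in monocytes (edgeR, adjusted p = 3.47e-30) and 2.85 ± 0.22 in cDC2 (adjusted p = 1.07e-17), and Atf3 was lower in the 5 lymphoid classes, fibroblasts and melanoma cells. Il1a (r = 0.95), an inflammatory cytokine gene, was among its 3 nearest genes over classes, with Gpr141 and I830077J02Rik (both 0.96).

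Batf (chromosome 12, 85686669 to 85709087, plus strand) was a T-cell member. It had 81.7 ± 11.6 CPM in regulatory T cells (n = 4), 68.5 ± 22.8 in conventional CD4 T cells, 59.8 ± 26.4 in other T cells and 50.6 ± 21.6 in CD8 T cells, then 20.2 ± 10.2 in macrophages and 19.2 ± 9.56 in NK cells. The remaining classes had between 0 (melanoma cells, where the 5 replicates held no UMI) and 12.8 ± 7.54 CPM (cDC2). Batf was higher in the 4 T-cell classes and in NK cells, with a log2 difference of 3.10 ± 0.31 in regulatory T cells (edgeR, adjusted p = 4.77e-12) and 0.72 ± 0.21 in NK cells (adjusted p = 0.00335). Melanoma cells passed as lower (adjusted p = 5.65e-14). Its nearest genes were Rhoh (r = 0.98), Fam78a (0.96) and Def6 (0.96).

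Batf3 (chromosome 1, 191097847 to 191108945, plus strand) was a dendritic-cell member, and mature dendritic cells exceeded cDC1. In mature dendritic cells it was 325, 412 and 331 CPM in Empty vector h1, h7 and h8 and 408, 319 and 280.5 in Bmal1 WT h3, h5 and h9. In cDC1 it was 227 and 195 CPM in Empty vector h1 and h8 and 204, 190.3 and 146 in Bmal1 WT h3, h5 and h9. No replicate of one class overlapped the other. The mean was then 149 ± 78.5 CPM in cDC2, 111 ± 74.4 in macrophages, 65.9 ± 45.7 in monocytes and 14.3 ± 9.73 in fibroblasts, and between 0.575 and 8.07 in lymphocytes and melanoma cells. The log2 difference from the other classes was 4.87 ± 0.23 in mature dendritic cells (edgeR, adjusted p = 6.23e-28) and 4.06 ± 0.28 in cDC1 (adjusted p = 3.10e-19). It was seen in 29.5% of mature dendritic cells, 13.1% of cDC1 and 0% of CD8 T cells at 1000 UMIs. Cxcl16, a chemokine gene, had the most similar class profile (r = 0.99), followed by Htr7 (0.96) and Gusb (0.95).

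The order of classes for each member was also read pair by pair. Each class was compared with the next one down in the replicates that held both, by a two-sided exact sign-flip permutation test of the log2 difference. Of 110 neighbouring pairs, 3 had an unadjusted p of 0.03125, the smallest that 6 replicates allow, and 0 passed adjustment (smallest adjusted p = 0.458). The design fixed that 0, since too few pairs had 6 replicates for any to pass over 110 pairs. The 3 were Fosl2 in monocytes over NK cells (0.53 ± 0.14, SD, higher in 6 of 6 replicates), Junb in NK cells over CD8 T cells (0.44 ± 0.27, 6 of 6) and Batf in CD8 T cells over macrophages (1.26 ± 0.88, 6 of 6). Mature dendritic cells over cDC1 for Batf3 was one-sided in 5 of 5 replicates (0.79 ± 0.19), where an exact test cannot go below 0.0625. In all, 16 pairs went one way in every replicate that held both classes, among them Fos in macrophages over cDC1 (0.58 ± 0.23, 5 of 5) and Atf3 in macrophages over cDC2 (0.70 ± 0.35, 5 of 5). Other adjacent ranks changed places between replicates. Fos was higher in monocytes than in macrophages in 2 of 6, and Junb higher in cDC2 than in conventional CD4 T cells in 2 of 5.

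To set members that follow the broad immediate-early response apart from class-specific ones, each was compared with a list of 34 other immediate-early and dissociation-associated genes (Egr1, Ier2, Dusp1, Zfp36, Nr4a1, heat-shock genes and others, without the AP-1 members). The summed list was lowest in melanoma cells at 8720 ± 812 CPM and fibroblasts at 9392 ± 688, between 11881 ± 1307 (CD8 T cells) and 14379 ± 1019 (other T cells) in lymphocytes, and 21948 ± 3225 in macrophages. It was highest in monocytes, from 24961 to 33707 CPM, a range above all replicates of every class other than macrophages. Among its genes, 29 of 34 were higher and 3 lower in monocytes, where the list median was 1.10 on the log2 scale and the median of all genes -0.36. In melanoma cells 8 were higher and 21 lower (list median -0.98, all genes 0.19).

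**Figure D3:**
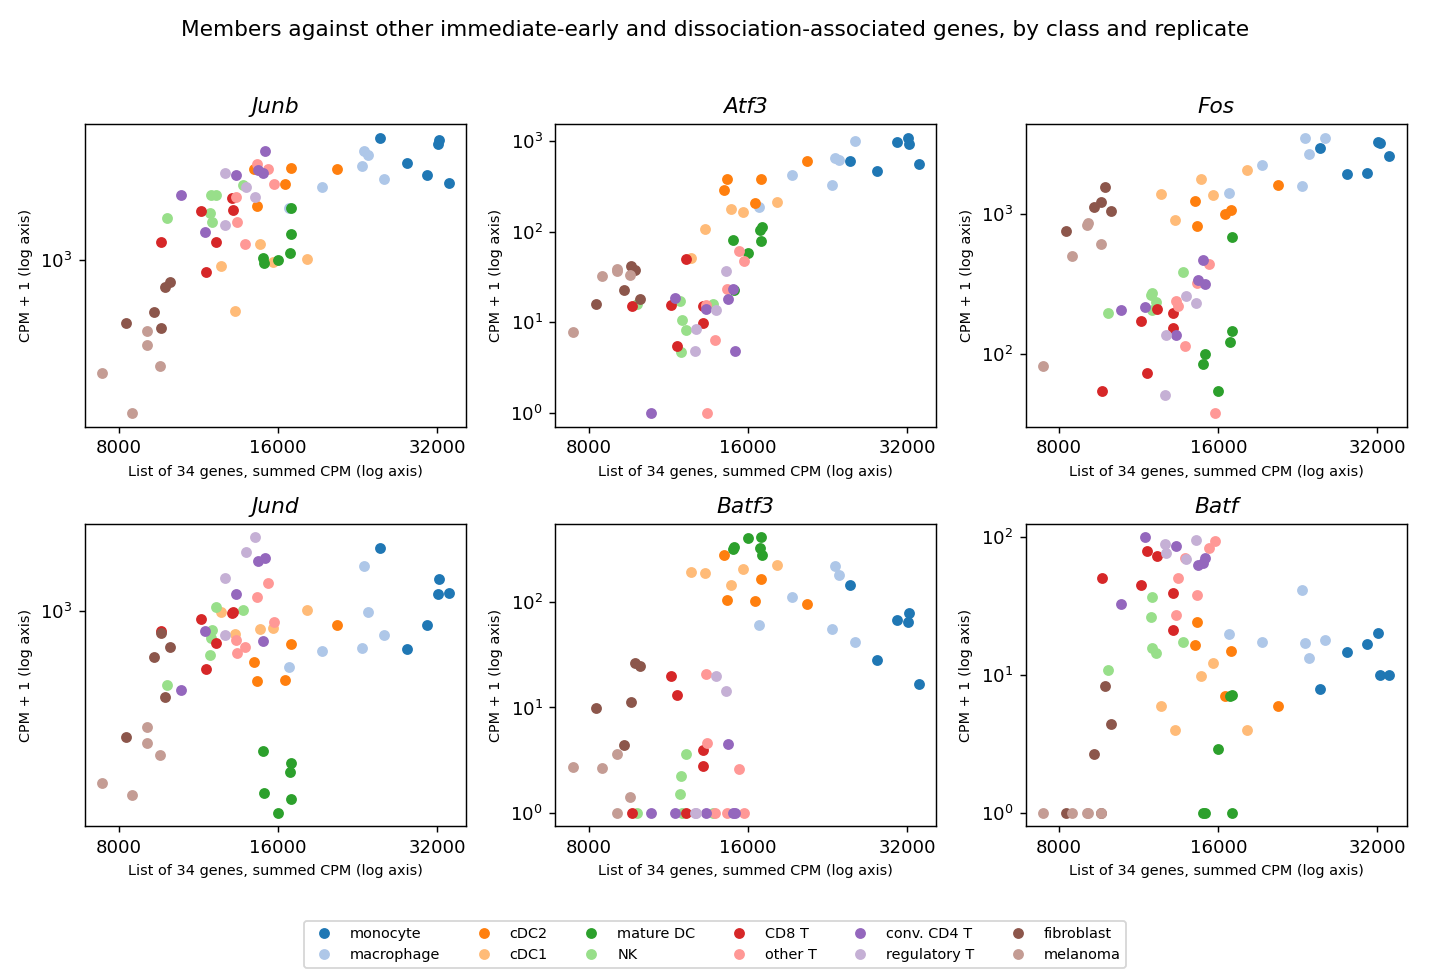
Level of Junb, Atf3, Fos, Jund, Batf3 and Batf (CPM plus 1, log axis, 1 panel per gene) against the summed CPM of the 34-gene list (log axis), with 1 point per class and replicate, coloured by class. Atf3 and Junb are highest at the monocyte and macrophage end of the list, Fos is high there and also in fibroblasts at the low end, and Batf3 and Batf peak in the middle, in dendritic cells and T cells.

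Across the 12 class means, which share libraries and replicates, the Pearson correlation with the list was 0.80 for Atf3 and 0.74 for Junb. It was 0.60 for Batf3, 0.50 for Fos, 0.48 for Fosl2, 0.36 for Jund, 0.28 for Fosb, 0.25 for Jun and Batf and -0.29 for Fosl1. By rank (Spearman) the values were 0.73 for Junb, 0.70 for Atf3 and 0.65 for Batf3, and 0.29 for Fosb, 0.20 for Jun, 0.07 for Batf and -0.13 for Fosl1. As a description, the class order of Junb, Atf3 and Batf3 was the closest to that of the list. Fibroblasts ranked first for Jun and second for Fosb while their list sum was the second lowest. In fibroblasts 7 of the 34 were higher, among them Egr1 (1.99 ± 0.24, edgeR, adjusted p = 9.2e-11) and Cebpd (5.47 ± 0.22, adjusted p = 2.2e-31), and 15 were lower.

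Within a class, the same question was asked of single cells. Cells were thinned to 1000 UMIs and each member with a UMI in at least 20 cells was correlated with the list sum of its own cell. The median r over classes was 0.35 for Fos (11 classes, 0.15 to 0.51), 0.31 for Junb (12 classes, 0.25 to 0.60), 0.30 for Atf3 (3 classes, 0.22 to 0.31), 0.27 for Jun (9 classes), 0.23 for Jund (12 classes, 0.13 to 0.39), 0.21 for Fosb (11 classes) and 0.11 for Fosl2 (10 classes). It was -0.01 for Batf3 (4 classes, -0.06 to 0.05) and -0.07 for Batf (1 class), and Fosl1 was too sparse. In cDC1, Fos also rose with the depth of the cell before thinning (r = 0.46). Cells of a class share their library and depth, so these values are a description. Cells with Fos, Junb and Jund therefore tended to carry more of the list in every class where they could be measured, and Batf and Batf3 stayed near 0.

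Of member pairs, Fos and Fosb were the most often together (median r = 0.35 over 11 classes, 0.11 to 0.59), followed by Fos and Junb (0.27) and Fos and Jund (0.22). The highest single values were Fos with Jun in fibroblasts (0.60, 342 cells) and Fos with Fosb in melanoma cells (0.59, 306 cells). A proportion of fibroblasts and melanoma cells thus held several immediate-early members at once. In melanoma cells this ran with mitochondrial content. Cells with under 1% mitochondrial UMIs had 135 CPM of Fos (95% exact Poisson interval 107 to 167) and 33.3 of Fosb (20.3 to 51.4), against 532 (518 to 545) and 183 (175 to 191) in the others. The same split gave 404 and 511 CPM for Jun, 269.5 (229.6 to 314) and 276 (266 to 286) for Junb, and 56.6 (39.2 to 79.0) and 64.1 (59.4 to 69.0) for Fosl1, and the intervals of Junb and Fosl1 overlapped. The part of cell quality in the Fos level was not tested.

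**Figure D4:**
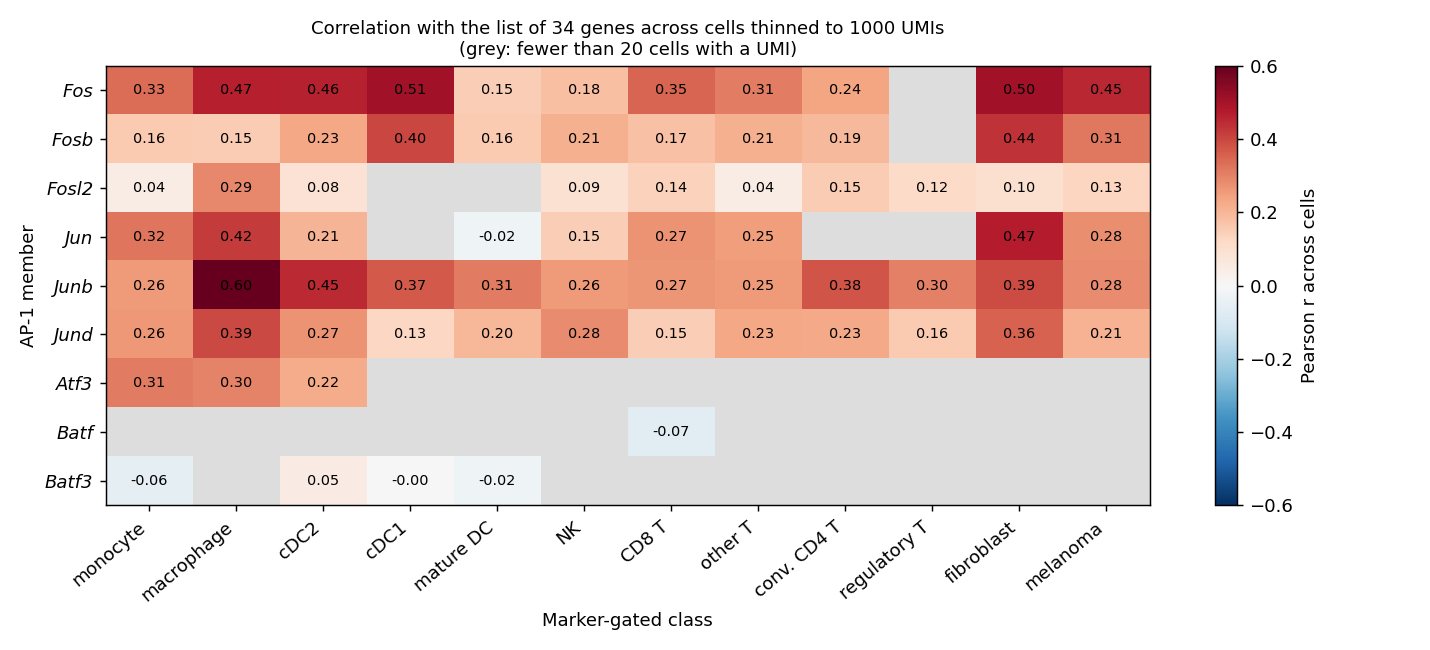
Pearson correlation, across cells of a class thinned to 1000 UMIs, between each AP-1 gene (rows) and the summed 34-gene list, by class (columns), with grey where fewer than 20 cells had a UMI. Values are above 0 for Fos, Fosb, Junb and Jund in every class shown and near 0 for Batf and Batf3.

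The other genes of the pathway were taken from 4 lists, which were drawn up with earlier results of these data known. Counts from these lists are to be read against the shares of all genes given for each class with the class comparison. Of 25 measured AP-1 target genes, 18 were higher and 0 lower in monocytes and in macrophages, with list medians of 2.51 and 2.48 on the log2 scale against -0.36 and -0.11 for all genes. In monocytes they included Ccl2, a monocyte chemokine (6.61 ± 0.43), Ptgs2, the inducible cyclooxygenase (5.85 ± 0.29), and Il1b (5.63 ± 0.31; edgeR, adjusted p of 4.6e-21, 1.7e-25 and 1.1e-24). In melanoma cells 16 target genes were higher and 4 lower, with Timp1, a metalloproteinase inhibitor, at 6.74 ± 0.33 (adjusted p = 5.8e-27) among the higher and Il1b (0.722 CPM) and Ptgs2 (0 CPM) among the lower. Fibroblasts had 14 higher and 1 lower, among them Timp1 (6.33 ± 0.36) and the matrix protease gene Mmp14 (5.28 ± 0.25; adjusted p of 1.3e-23 and 8.2e-27). More targets were higher than lower both in the classes with the most Atf3 and in those with the most Fosl1. In cDC2 9 were higher and 3 lower. In cDC1, where Atf3 and Fos were also called higher, 2 targets were higher and 11 lower (list median -1.69, all genes -0.23). NK cells had 2 higher and 12 lower, and CD8 T cells 1 higher and 12 lower. One of the list, Mmp9, is also in the neutrophil marker list.

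Of 17 measured BATF and IRF partners and targets, 14 were higher and 2 lower in conventional CD4 T cells, 13 and 0 in other T cells, and 12 and 0 in both CD8 and regulatory T cells, the classes with the most Batf. They included Icos, a costimulatory receptor, in conventional CD4 T cells (5.52 ± 0.23, edgeR, adjusted p = 2.1e-28) and Tnfrsf4 in regulatory T cells (6.82 ± 0.27, adjusted p = 2.4e-29). Ctla4 and Ikzf2 of this list are also markers of the regulatory T-cell gate. Mature dendritic cells, with the most Batf3, had 9 higher and 3 lower, including Il12b (9.89 ± 0.40) and Irf8 (2.96 ± 0.17; adjusted p of 7.3e-20 and 1.5e-23). The counts did not follow Batf and Batf3 in every class. In cDC1, second for Batf3, 4 were higher and 8 lower, and in cDC2 5 and 4. NK cells, with less Batf than the T-cell classes, had 10 higher and 1 lower. In melanoma cells 0 were higher and 10 lower.

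Among 20 other bZIP partners, monocytes had 13 higher and 2 lower, with Bach1 (2.80 ± 0.12, edgeR, adjusted p = 1.7e-30) and Nfil3 (2.47 ± 0.13, adjusted p = 1.3e-24), and cDC1 had 1 higher and 9 lower, with Maf, a T-cell and macrophage factor, at -4.80 ± 0.81 (adjusted p = 1.9e-06). Of 17 measured upstream kinases and SRF factors, 10 were higher and 3 lower in monocytes and 4 higher and 10 lower in mature dendritic cells. Of all genes tested, 21.7% were higher and 33.3% lower in monocytes and 15.2% and 18.2% in cDC1. In mature dendritic cells the shares were 21.1% and 27.5%, and the 4 higher there were near the first. Prkcd, a kinase of myeloid receptor signalling, was 2.85 ± 0.15 higher in monocytes (adjusted p = 4.1e-25), and Mapk3 (ERK1) was 1.60 ± 0.11 higher in melanoma cells (adjusted p = 3.4e-20).

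Bmal1 WT was compared with Empty vector within each class. Most members were a little lower in Bmal1 WT and none passed the threshold. In 11 classes, 81 member and class pairs had enough UMIs (100 over the replicates) to be tested. The edgeR quasi-likelihood test called 0 of 81 at an adjusted p under 0.05, with 22 under 0.05 before adjustment and a smallest adjusted p of 0.0725. The 22 were 5 of 7 members in CD8 T cells (all genes, 660 of 6006), 5 of 7 in NK cells (915 of 7281) and 5 of 8 in monocytes (650 of 6034). Other T cells had 4 of 7 (732 of 3878), conventional CD4 T cells 2 of 7 (303 of 2840) and mature dendritic cells 1 of 8 (236 of 3683). The estimate was lower in Bmal1 WT in 59 of 81 (54 with TMM scaling and 56 with DESeq2). All genes leaned the same way, since 56.1% to 63.4% of them had a lower estimate in 10 of the 11 classes and 49.1% in melanoma cells, and the counts per member below are to be read against that. The share of all genes called was 0.261% in NK cells, 0.0352% in conventional CD4 T cells and 1.7% in other T cells, and 0% in CD8 T cells, cDC1, cDC2, fibroblasts, macrophages, mature dendritic cells, melanoma cells and monocytes. The log2 median of all genes was itself between -0.13 and 0.01, and TMM scaling moved it by over 0.1 in conventional CD4 T cells (-0.13 to 0.01) and other T cells (-0.11 to -0.01).

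Junb had the smallest adjusted p. In NK cells it was 2538, 2256 and 2255 CPM in Empty vector h1, h7 and h8 and 1788, 1605 and 1681 CPM in Bmal1 WT h3, h5 and h9. All Bmal1 WT values lay below all Empty vector values, and the log2 difference was -0.47 ± 0.10 (SE, edgeR, adjusted p = 0.0725). In CD8 T cells Junb was 1867, 2151 and 1849 CPM against 1254, 865 and 1254 (-0.80 ± 0.15, adjusted p = 0.316). In monocytes it was 4249, 4578 and 4438 CPM against 2864, 2591 and 3342 (-0.59 ± 0.11, adjusted p = 0.18). The ranges were apart in these 3 classes, and over the 11 classes the estimate was lower in 9, with the main scaling, TMM and DESeq2 alike. The 2 exceptions were mature dendritic cells (0.18 ± 0.25) and fibroblasts (0.02 ± 0.34). Bmal1 WT cells were deeper, with a median of 6170 UMIs against 4196.5 in NK cells, 6897 against 5071 in CD8 T cells and 9496 against 6924 in monocytes. After thinning to 1000 UMIs, Junb correlated with the depth before thinning at -0.14, -0.16 and -0.03 in these classes, and Jund at -0.29, -0.19 and -0.13. The part of depth in the group differences was not tested.

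Jund was lower in 10 of 11 classes under the same 3 scalings, from -0.77 ± 0.20 in conventional CD4 T cells (edgeR, adjusted p = 0.343) to 0.05 ± 0.26 in melanoma cells (adjusted p = 0.9997). In conventional CD4 T cells it was 1402, 1432 and 1123 CPM in Empty vector and 820.3, 878 and 586 CPM in Bmal1 WT. The ranges were again apart. Fosl2 was lower in 8 of 10 classes, with -1.05 ± 0.20 in CD8 T cells (adjusted p = 0.316), where the Empty vector replicates had 436, 388 and 319 CPM and the Bmal1 WT ones 231, 143 and 175.

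Fos was lower in 8 of 11 classes. Its lowest estimate was in other T cells, with 333 ± 101 CPM in Empty vector and 124 ± 92.2 in Bmal1 WT (SD, n = 3 each; log2 -1.25 ± 0.36, edgeR, adjusted p = 0.0892). Without Bmal1 WT h3 the estimate for Fos in other T cells was -1.998 ± 0.40 (edgeR, adjusted p = 0.0256). In monocytes it was 3238, 2949 and 3202 CPM in Empty vector and 1969.9, 2605 and 1930.2 CPM in Bmal1 WT (-0.53 ± 0.13, adjusted p = 0.195), with the ranges apart. Mature dendritic cells went the other way at 0.995 ± 0.763 (adjusted p = 0.807), and this rested on 1 replicate. There Bmal1 WT h9, with 15 cells, had 684 CPM of Fos where h3 and h5 had at most 83.4, and without it the difference was -0.82. In that replicate the 10 macrophage markers summed to 379.8 CPM with 3 at 0, against 0 to 6.26 CPM with 7 to 10 at 0 in the other 5, and the 10 monocyte markers to 637 CPM against 32.9 to 138. The part of other cell types in that value was not tested. Fosl2 in mature dendritic cells (1.41 ± 0.83, adjusted p = 0.767) had its high value, 309.7 CPM, in the same replicate.

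**Figure D5:**
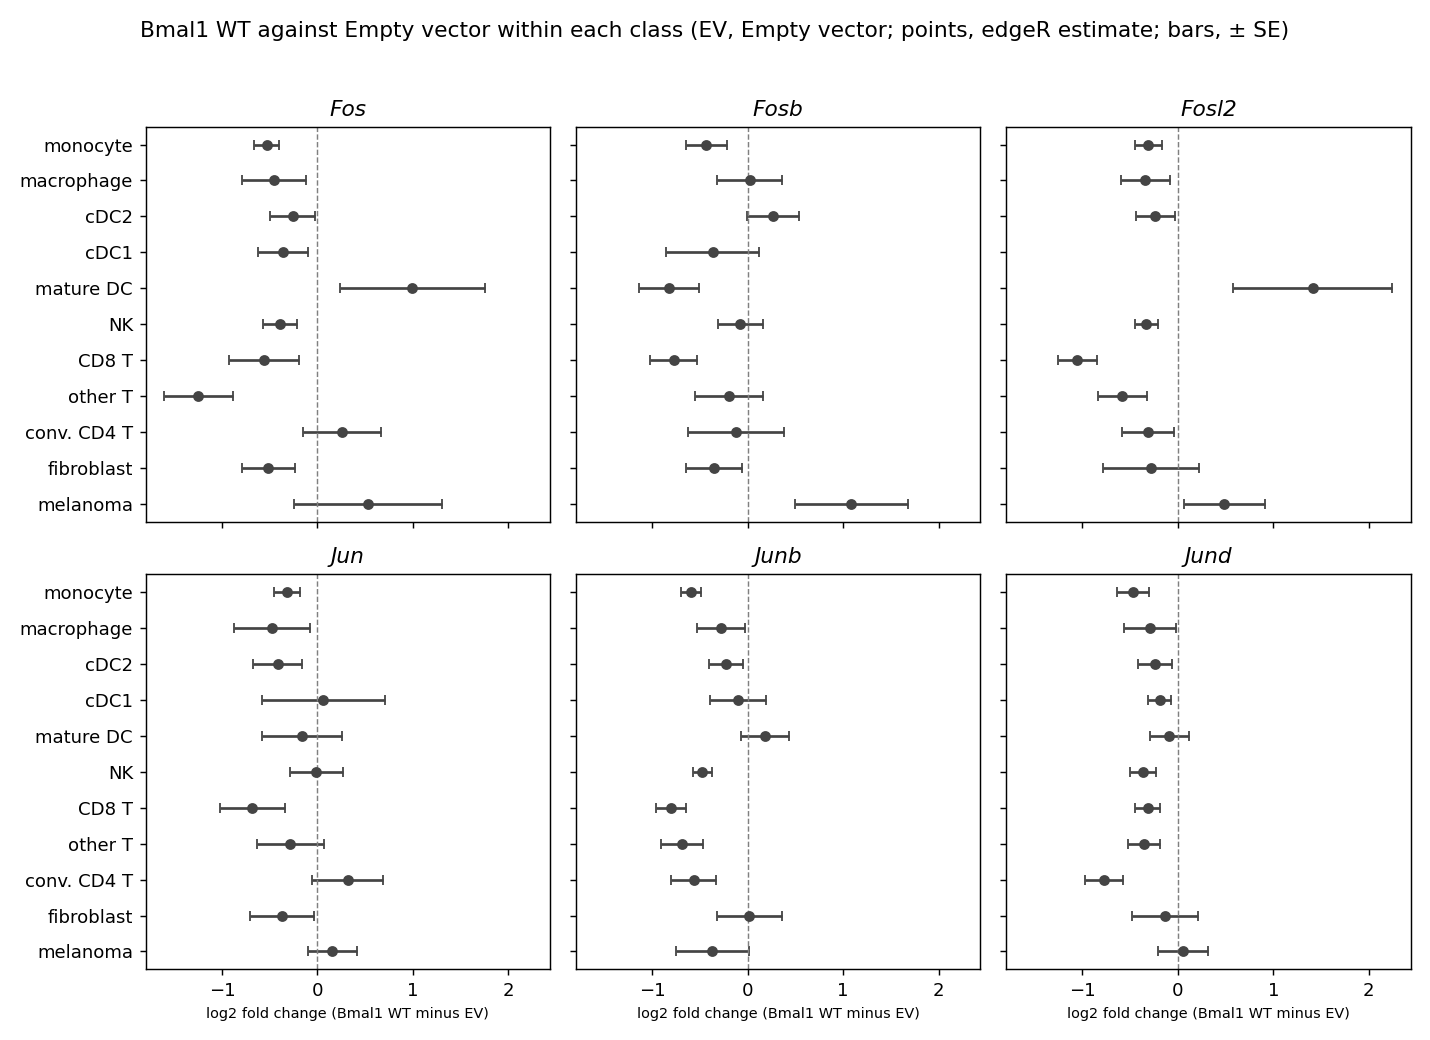
Estimated log2 fold change, Bmal1 WT minus Empty vector (points, edgeR; bars, SE), of Fos, Fosb, Fosl2, Jun, Junb and Jund, 1 panel per gene and 1 row per class tested. Most points lie left of 0, all 6 in monocytes among them, while 5 of 6 in melanoma cells lie right of 0, and no adjusted p was under 0.05.

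Counted over members, all Bmal1 WT replicates lay below all Empty vector replicates for 4 of 7 in CD8 T cells (Fosb, Fosl2, Junb and Jund), where 10.4% of all genes did so, and for 4 of 8 in monocytes (Fos, Fosl2, Jun and Junb), where 11.3% did. The count was 2 of 7 in NK cells (12.9% of all genes), 1 of 7 in conventional CD4 T cells (13.3%), 1 of 7 in other T cells (16.1%), 0 of 8 in macrophages (8.61%) and 0 of 8 in mature dendritic cells (8.61%). In the classes with 5 replicates it was 1 of 7 in cDC1 (18.6%), 1 of 6 in fibroblasts (16.9%), 0 of 8 in cDC2 (16.5%) and 0 of 8 in melanoma cells (9.56%). The share of members was thus above that of all genes in CD8 T cells and monocytes. Counts of 0 to 2 in the other classes are too small to set apart from the share of all genes. Whether the classes differ in this was not shown by these counts. Monocyte markers summed to 984 to 1317 CPM in the CD8 replicates of Empty vector and 526 to 1173 in those of Bmal1 WT, and 1 to 5 of the 10 were at 0; their part in the CD8 values was not tested.

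Atf3, Batf and Batf3 were mixed. Batf was higher in Bmal1 WT in 3 of 4 classes (4 of 4 with TMM or DESeq2), and in CD8 T cells it was 38.6, 20.4 and 44.2 CPM for Empty vector against 72.2, 78.2 and 50.03 CPM for Bmal1 WT (0.90 ± 0.27, edgeR, adjusted p = 0.394). Atf3 was lower in 3 of 6 classes and Batf3 in 3 of 5 (2 of 5 with TMM or DESeq2). In monocytes Batf3 was 63.3, 145 and 77.7 CPM for Empty vector and 66.2, 15.6 and 27.3 CPM for Bmal1 WT, with overlapping ranges (-1.01 ± 0.44, edgeR, adjusted p = 0.452), and it was called lower when no gene filter was used (adjusted p = 0.0116). Up to 208 of all genes were called in monocytes under the alternatives, against 0 in the main test. Batf3 in mature dendritic cells was 356 ± 48.6 CPM in Empty vector and 336 ± 65.5 in Bmal1 WT (-0.06 ± 0.20, adjusted p = 0.968). Whether the difference between groups in a class departed from that in the other classes was tested directly, in a comparison added after the data had been seen. It passed for 0 of 110 member and class pairs (edgeR, 6 under 0.05 before adjustment, smallest adjusted p = 0.509). Of all 11535 genes, 37 passed in fibroblasts, 13 in mature dendritic cells and at most 3 in any other class.

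In melanoma cells, the type that the labels name as the source, 2 Empty vector and 3 Bmal1 WT replicates had at least 10 cells. Fosl1 was 70.4 ± 17.4 CPM in Empty vector and 63.3 ± 3.12 in Bmal1 WT (-0.15 ± 0.26, edgeR, adjusted p = 0.9997). Jun was 419.7 ± 8.36 and 467 ± 116 CPM, Fosb 133 ± 112 and 286 ± 119, and Fos 454 ± 526 and 655 ± 187. Of 8 members tested, 6 had a positive estimate and 2 a negative one, and 49.1% of all genes were lower. At these cell numbers no difference was detectable by edgeR (0 of 8 members and 214 of 7273 genes under 0.05 before adjustment).

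Over all cells of a replicate, 0 of 10 members and 0% of the 12042 genes passed edgeR (2936 genes under 0.05 before adjustment), with Junb at -0.92 ± 0.23 (adjusted p = 0.151), Jund at -0.57 ± 0.11 (adjusted p = 0.151) and Fosl2 at -0.86 ± 0.25 (adjusted p = 0.157). DESeq2 called these 3 and 961 genes in all. Fosl1 had the opposite sign, 1.88 ± 0.75 (adjusted p = 0.192). It was 12.3, 0.734 and 15.3 CPM in Empty vector h1, h7 and h8 and 30.7, 47.2 and 30.3 in Bmal1 WT h3, h5 and h9. The share of cells in the melanoma gate was also higher in every Bmal1 WT replicate, at 1.64%, 0.862% and 1.51% against 1.88%, 7.47% and 3.68%. So was the share in clusters 21 and 23, where most cells entered no class, at 1.43%, 0.862% and 1.60% against 3.63%, 11.3% and 8.90%. The part of class composition in the all-cell values was not tested, and within melanoma cells Fosl1 did not differ detectably.

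Few other genes of the pathway passed between groups. In NK cells Dusp5, a phosphatase of ERK, was lower (-0.73 ± 0.12, edgeR, adjusted p = 0.0182) and Hmox1, a haem-degrading stress enzyme, was higher (4.93 ± 0.93, adjusted p = 0.0386, at a mean of 13.8 CPM). In conventional CD4 T cells Il10 was lower (-4.87 ± 0.65, adjusted p = 0.0478). In other T cells, where 1.7% of all genes passed, 6 of 30 genes of the immediate-early list were higher and 1 lower. The list as a whole leaned lower, with a median log2 difference of -0.39 against -0.11 for all genes. The 5 largest calls went against that and were all heat-shock genes: Hspa1b (2.44 ± 0.32, adjusted p = 0.00719), Hspa1a (2.10 ± 0.31), Hsp90aa1 (0.91 ± 0.15), Hspe1 (0.80 ± 0.16) and Hsp90ab1 (0.77 ± 0.15). Maf was lower there (-1.37 ± 0.20, adjusted p = 0.00719).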

How the data were processed

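UMI counts per gene and cell barcode were used as the authors deposited them, in filtered Cell Ranger 6.1.2 matrices (file header) named with mm10 in the submitters' processing notes; the sources used here do not say whether counting used strand, so Fosl1, Jun, Junb, Jund and Atf3, which overlap a gene on the other strand, may share reads with it. Coordinates are from GENCODE M21 (GRCm38), 1-based. The members, marker lists and gene lists were chosen with earlier results of these data known, and the gating rule after the data had been seen.

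Barcodes with at least 200 genes and at most 20% mitochondrial UMIs were kept, leaving 3978 Empty vector cells (34232927 UMIs before filtering) and 2386 Bmal1 WT cells (39561569 UMIs). Cells were given to a hashtag by a 2-component Gaussian mixture (scikit-learn 1.9.0); 3222 and 1621 had exactly 1 hashtag. A cell entered a class by its summed marker score. Scrublet (in scanpy 1.11.5) called 2 and 3 cells as doublets and was taken not to have worked, so doublets were left in and the highest 5% of scores removed as an alternative. UMIs were summed per class and hashtag replicate with at least 10 cells and tested in edgeR 4.0.16 (quasi-likelihood, total-UMI library size, genes with at least 100 UMIs, Benjamini-Hochberg at 0.05). Classes were compared with the replicate as a block, since the classes of a replicate came from the same hashtagged sample. In simulated counts the Empty vector against Bmal1 WT test in NK cells and the monocyte contrast were checked. Alternatives were TMM, DESeq2 1.42.0, limma 3.58.1 on mean cell CPM, no gene filter, stricter cells, other hashtag and class assignment, and leaving out each replicate. Named genes were all 10 members, the 3 genes most correlated with each over classes (1 added to CPM, at least 500 UMIs), and up to 5 genes per list past the threshold. Intervals and floors cover counting error only. Some genes of the lists are not reported here by name.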

Additional observations from a re-analysis of the deposited data

Results flagged for a closer look

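Several classes were too small for the comparison of classes and are given here as values, because their pooled level exceeded every replicate of the 12 classes compared (95% exact Poisson interval above it, counting error only). In the 22 mast cells or basophils Fos was 3854 CPM (3518 to 4213), Fosb 2126 (1879 to 2397), Jun 3432 (3116 to 3772), Junb 6697 (6252 to 7165) and Jund 2126 (1879 to 2397), where the highest replicate elsewhere was 3496, 1435, 1259.9, 4578 and 1647. In the 9 neutrophils Fos was 6044 CPM (5215 to 6967), Junb 7603 (6669 to 8629.9) and Fosl2 1590.5 (1180.5 to 2097), the last against 889 elsewhere. In the 10 B cells Jund was 2643 CPM (2086 to 3304). Each rests on 9 to 22 cells, and no test was made.

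Fosl1 was also above the highest melanoma replicate (82.8 CPM) in cells that entered no class. It was 118.9 CPM (105 to 134) in the 259 ungated cells of cluster 21, which had a median of 2780 UMIs and 0.0153% mitochondrial UMIs, and 99.3 CPM (93.0 to 106) in the 143 ungated cells of cluster 23, with a median of 53993 UMIs. These cells held 0.908 and 0 CPM of Batf. All cells of the 2 clusters, gated or not, were 0.862% to 1.60% of the cells of the Empty vector replicates and 3.63% to 11.3% of those of Bmal1 WT.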

How the results depend on the processing

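In the class comparison the number of members called stayed within 5 to 10 per class over 14 alternatives, and without the replicate block 83 of 120 pairs were called rather than 85, all 83 among the 85. Fosl1 in macrophages turned from -0.01 to 2.34 when classes were taken from clusters; the cause was not tested. Between Empty vector and Bmal1 WT, where edgeR called 0 members, removing the gene filter gave 2 calls in CD8 T cells, 1 in NK cells, 1 in conventional CD4 T cells, 2 in mature dendritic cells, 1 in melanoma cells, 3 in monocytes and 2 in other T cells. The 2 in mature dendritic cells were Fos and Fosl2, which had their high values in Bmal1 WT h9. All genes called rose too. With all replicates kept, the most under any alternative was 129 in CD8 T cells, 160 in NK cells and 134 in conventional CD4 T cells. It was 181 in mature dendritic cells, 125 in melanoma cells, 208 in monocytes and 289 in other T cells. DESeq2 called Junb in CD8 T cells (adjusted p = 0.00944) and in NK cells (0.0194) and Fos in other T cells (0.0158), 1 member each, and 3 over all cells. Limma on mean cell CPM called 1 in CD8 T cells (Junb, 0.0286), and removing the highest Scrublet scores gave 2 in other T cells (Junb and Fosl2). Leaving out 1 replicate gave 0 to 1 in NK cells (Junb without Empty vector h7, adjusted p = 0.0103) and 0 to 1 in other T cells (Fos without Bmal1 WT h3, 0.0256, and Junb without h9, 0.0396). The number of all genes called moved as well, between 0 and 97 in NK cells (19 in the main test) and 1 and 88 in other T cells (66) when a replicate was left out. Thinning to 2000 UMIs moved the median correlation with the list from 0.11 to 0.19 for Fosl2, and to 0.28 for Fosb, 0.39 for Junb, 0.32 for Jund, -0.0219 for Batf and 0.0781 for Batf3. Summing all cells of a class in a library, with or without a hashtag, gave the same sign for 73 of 81 pairs. Classes by clusters gave no melanoma comparison of groups, and the stricter filter and the Scrublet filter gave no fibroblast one. No paired analysis of Empty vector against Bmal1 WT was possible because the groups share no hashtag number. Depth limits Fosl1, Batf and Batf3, and few hashtagged cells limit fibroblasts and melanoma cells.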
